A study of Mus musculus with 12 samples.

Results

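Origin licensing is the step that prepares each replication origin to fire, and 10 genes of it were followed in mouse hematopoietic stem cells (HSCs): the helicase subunits Mcm2, Mcm3, Mcm4, Mcm5, Mcm6 and Mcm7, the loading factors Cdc6 and Cdt1, the inhibitor Gmnn, and Mcm10. They were taken by gene symbol from the deposited table, which holds 46986 features, and each of the 10 symbols matched 1 feature. The study sequenced RNA of bone marrow HSCs in 4 groups of 3 libraries, all from C57BL/6 mice aged 12 weeks. Ctrl 5-FU mice had no antibiotics and were analysed on day 12 after 200 mg/kg of 5-fluorouracil (5-FU) given intravenously. Ctrl mice had neither agent. ABX 5-FU mice were given vancomycin, metronidazole, neomycin and ampicillin in their water over 4 to 6 weeks, then received the same 5-FU dose and were analysed on the same day. ABX mice had the 4 antibiotics and no 5-FU. Antibiotics of this kind deplete gut bacteria, which were not measured in these files, and whether they were kept up after 5-FU is not stated in the labels. 5-FU blocks thymidylate synthesis and kills dividing marrow cells, so day 12 falls in the recovery of the marrow. The labels name neither the sort gates nor the animals behind each library. Since replicates may not be separate animals, p-values reflect the spread between these libraries alone, which may be technical.

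Licensing begins when the origin recognition complex and CDC6 sit on an origin and take up MCM2-7 rings delivered by CDT1. A pair of rings is closed around the DNA in G1 and stays inactive until S phase, when CDC45, GINS and MCM10 turn it into the working helicase. Geminin, the product of Gmnn, binds CDT1 from S phase to mitosis, and CDT1 is degraded in S phase, so that no origin is licensed again in the same cycle. Most HSCs of an adult mouse are quiescent. Cells that stay out of the cycle carry few MCM proteins, and low MCM expression has been linked to replication stress in HSCs of old mice.

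E2F transcription factors, held in check by RB proteins, drive many licensing genes in late G1. RefSeq promoters (build GRCm38.p6, 250 bases before to 50 after a start site) were matched by symbol for 8 of the 10 genes, all but Mcm4 and Gmnn, with a pair of start sites for Mcm7. The E2F-type words TTTCCCGC, TTTCGCGC, TTTGCCGC and TTTGGCGC, searched on both strands, were present for 6 of these 8 genes. By comparison, 2.26% of all 32851 promoters and 4.49% of the 7104 promoters of genes tested here held one of these words. Counted by promoter in the same way, 6 of the 9 promoters of these 8 genes did. The stretches with a match are shown with the matching letters in capitals, read 5′ to 3′ on the strand of the gene. Whether these letters have a part in the changes after 5-FU was not tested. Mcm5 and Mcm6 are shown over 250 bases before the start, and the others as 30-base windows because their matches lie inside the gene as the deposited table draws it.
Mcm5, chr8:75109259-75109508, plus strand: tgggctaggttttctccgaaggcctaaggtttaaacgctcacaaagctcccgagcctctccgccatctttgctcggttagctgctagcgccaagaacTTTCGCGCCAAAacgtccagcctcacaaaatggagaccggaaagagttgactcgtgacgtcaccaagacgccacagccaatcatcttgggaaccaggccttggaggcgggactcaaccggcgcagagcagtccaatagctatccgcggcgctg
Mcm6, chr1:128359706-128359955, minus strand: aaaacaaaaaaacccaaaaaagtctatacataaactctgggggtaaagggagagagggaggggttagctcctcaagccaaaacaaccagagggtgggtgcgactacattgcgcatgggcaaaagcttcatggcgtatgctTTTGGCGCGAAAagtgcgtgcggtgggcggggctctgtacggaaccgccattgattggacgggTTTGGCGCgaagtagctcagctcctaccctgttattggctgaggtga
Mcm3, chr1:20820266-20820295, minus strand: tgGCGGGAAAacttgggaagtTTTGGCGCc
Mcm7, chr5:138172030-138172059, minus strand: aatttcgaaccGCGGGAAAcagggtgtcca
Mcm7, chr5:138171849-138171878, minus strand: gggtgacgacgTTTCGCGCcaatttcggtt
Cdt1, chr8:122568035-122568064, plus strand: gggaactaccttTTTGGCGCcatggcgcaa
Cdc6, chr11:98908002-98908031, plus strand: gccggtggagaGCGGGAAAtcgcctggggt

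Mcm6 held 3 matches, Mcm3, Mcm5 and Mcm7 held 2 each, and Cdt1 and Cdc6 held 1 each. In Mcm5 and in the distal stretch of Mcm6, a sense and an antisense match overlap in a single run of 12 letters. The other Mcm7 start site, and the windows of Mcm2 and Mcm10, held none of these letters. CCAAT, the letters bound by NF-Y, occurred for 6 of the 8 genes. By promoter this was 7 of 9, against 38.8% of promoters of tested genes. The GC box GGGCGG occurred for 6 of the 8 and in 7 of 9 promoters, against 63.3% of promoters of tested genes. TTTGAA is the core of the cell cycle homology region found in late cell cycle promoters. It occurred in Mcm2 alone among the 8 genes, 1 of 9 promoters, against 11.8% of promoters of tested genes. Each match is a description of letters, and binding was not measured here.

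Expression is given in RPKM as made by the authors, that is, reads scaled by transcript length and by the mapped reads of a library, which allows levels to be compared between genes. Summed RPKM per library ran from 142124 to 152913 in Ctrl 5-FU, 165095 to 174249 in Ctrl, 149883 to 157116 in ABX 5-FU and 165854 to 176921 in ABX libraries. Estimated depth ran from 27.7 to 54.6 M reads. All 5-FU libraries had other i7 indexes than the rest, so 5-FU and index cannot be told apart. The HSC label was checked on marker genes: Hlf, an HSC transcription factor, lay at 4.47 to 7.82 RPKM, Procr, an HSC surface receptor, at 15.9 to 31.6 RPKM, and Cd48, absent from HSCs, at 0.156 to 0.514 RPKM. The B cell genes Ms4a1 and Pax5 and the T and NK cell genes Cd3e, Cd3g and Ncr1 were listed at 0 in every library. Other genes of these lists were not: the B cell receptor gene Cd79b lay at 8.56 to 15 RPKM and the cytotoxic granule gene Nkg7 at 23.4 to 49.5 RPKM. The NK cell receptor gene Klrb1c lay at 4.31 to 6.41 RPKM in Ctrl 5-FU, 0.645 to 1.25 in Ctrl, 5.26 to 6.20 in ABX 5-FU and 0.579 to 0.790 in ABX libraries, and it was called higher in both comparisons with 5-FU (limma). Summed erythroid markers ranged from 144 to 230 RPKM in Ctrl 5-FU, 28.6 to 305 in Ctrl, 167 to 509 in ABX 5-FU and 40.1 to 58.1 in ABX libraries. Summed neutrophil and monocyte markers reached 402 RPKM in Ctrl 5-FU replicate 3, and summed megakaryocyte markers reached 406 RPKM in Ctrl 5-FU replicate 1.

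The order of mean levels was similar between groups but not the same. Mcm7 was the most abundant of the 10 genes in each. Mcm3, Mcm6 and Mcm2 followed in Ctrl and ABX, and Mcm6, Mcm3 and Mcm2 in both 5-FU groups. Next came Mcm5 and Mcm4 in Ctrl, and Mcm4 and Mcm5 in the other groups, then Cdt1, Gmnn, Cdc6 and Mcm10 in each. Mcm6 and Mcm3 had separate ranges in ABX 5-FU, 13.1 to 13.6 and 12.0 to 12.4 RPKM, and overlapping ranges in the other groups. The range of Mcm7 lay above that of the next gene in all 4 groups, as did that of Cdt1 above Gmnn and that of Cdc6 above Mcm10. Mcm3 and Mcm2, next to each other or a rank apart, had overlapping ranges in every group. Within each Ctrl library Mcm3 lay above Mcm2, while in replicate 1 of ABX and of ABX 5-FU Mcm2 lay above Mcm3. In Ctrl libraries, the ranges of Mcm4, Mcm5 and Cdt1 overlapped from each rank to the next. Within each Ctrl library, however, Mcm5 lay above Mcm4 and Mcm4 above Cdt1.

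**Figure D1:**
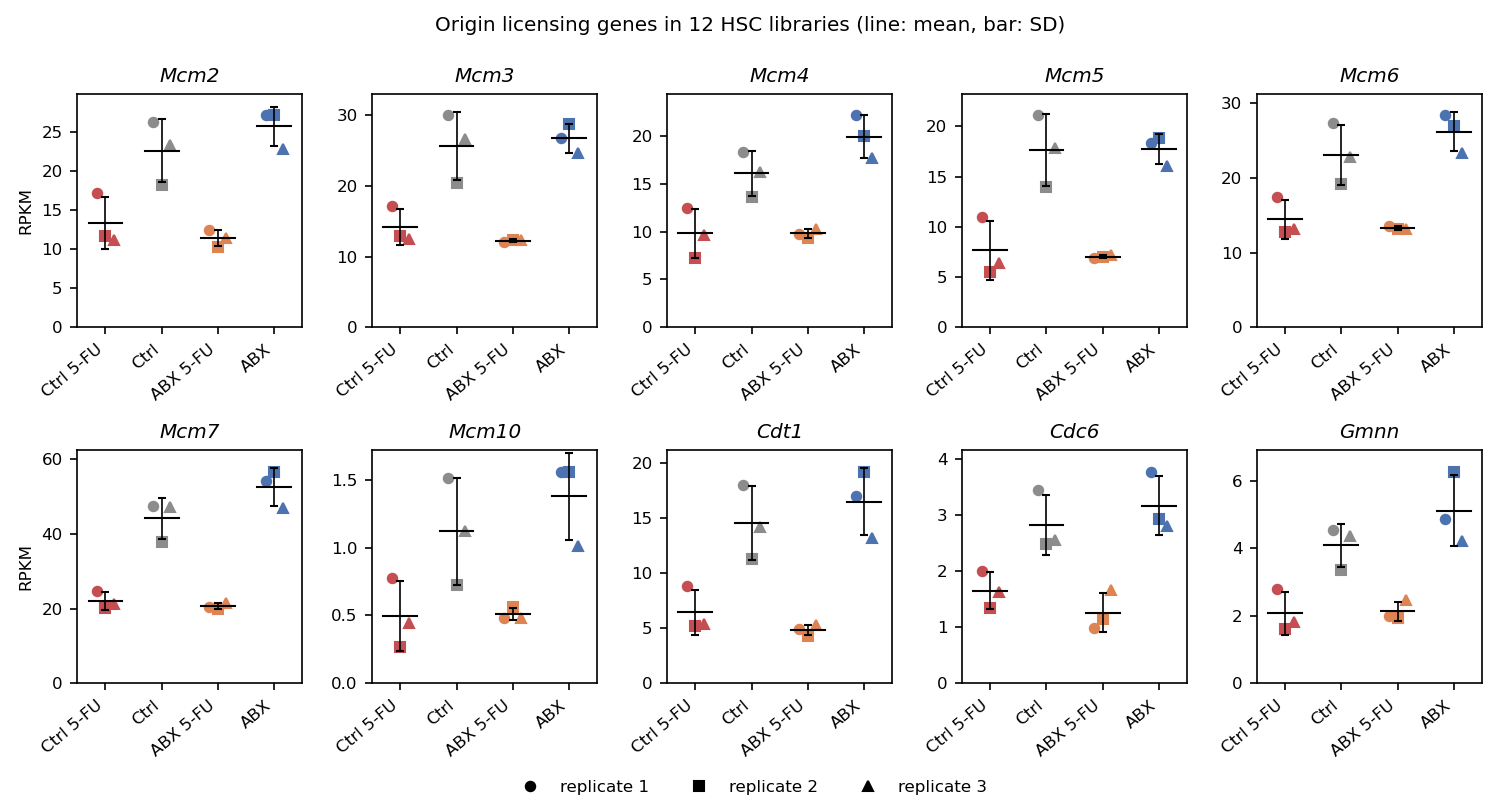
RPKM of the 10 origin licensing genes in Ctrl 5-FU, Ctrl, ABX 5-FU and ABX libraries; points are libraries, marker shape gives the replicate, the line is the mean and the bar the SD (n = 3), and each panel has its own axis from 0. Both 5-FU groups sit below the groups without 5-FU for 9 of the 10 genes, and for Mcm10 the highest Ctrl 5-FU library, at 0.774 RPKM, lies above the lowest Ctrl library, at 0.727 RPKM.

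The comparison of Ctrl 5-FU with Ctrl addressed how licensing genes stood in HSCs during recovery from 5-FU in mice that had no antibiotics. Expression of the helicase, of both loading factors and of geminin was lower on day 12 than in untreated mice, by 1.6 to 2.31-fold on the means for these 9 genes. Tests were run with limma on log2(RPKM + 1) over 8553 genes and adjusted with the Benjamini-Hochberg method, and changes are log2 ± SE on that scale, which understates changes of low genes. Apart from Mcm10, 9 of 9 genes were called lower, where 11.8% of all genes tested were called lower and 21.6% were called in either direction. Their groups did not overlap for 9 of 9, against 18.3% of all genes in this direction, and their median change was -0.74, against 0.005 for all genes. The low-value filter asked for 1 RPKM in any 3 of the 12 libraries. The shares of all genes therefore also count genes that entered only through libraries without 5-FU. In bulk RNA, fewer cycling cells and less RNA per cell cannot be told apart.

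Mcm7 (chr5:138164583-138172422), a core subunit of the helicase, had 24.8, 20.2 and 21.2 RPKM in the 3 Ctrl 5-FU libraries, against 47.4, 37.7 and 47.2 RPKM in the 3 Ctrl libraries. The highest Ctrl 5-FU library lay well below the lowest Ctrl library. The mean was 22.1 ± 2.42 RPKM in Ctrl 5-FU and 44.1 ± 5.55 RPKM in Ctrl (SD, n = 3 each), a change of -0.96 ± 0.11 (limma, adjusted p = 0.000524). Mcm7 shares 321 bases of exon with Ap4m1 and 64 with Cops6 on the opposite strand, and its sequence is 97.682% identical over 2157 bases to the pseudogene Gm5487, not analysed here. Neither the strand setting nor the handling of shared reads is known here, so its level is uncertain to that extent. Ap4m1 stood at 1.91 to 2.81 RPKM and Cops6 at 30.2 to 47.7 RPKM over the 12 libraries. The microRNAs Mir106b, Mir93 and Mir25 lie within Mcm7, and all 3 were listed at 0 in every library.

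Mcm5 (chr8:75109528-75128439), which in yeast forms with Mcm2 the gate where the ring opens, showed the largest change of the 10 genes in this comparison. It had 11, 5.53 and 6.41 RPKM in Ctrl 5-FU libraries and 21.1, 14.0 and 17.8 RPKM in Ctrl libraries. The groups stood apart, with Ctrl 5-FU replicate 1 nearest to the Ctrl range. The change was -1.14 ± 0.20 (limma, adjusted p = 0.00346).

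Mcm2 (chr6:88883474-88898780), the partner of Mcm5 at that gate and a carrier of parental histones, had 17.1, 11.6 and 11.2 RPKM in Ctrl 5-FU libraries, against 26.2, 18.2 and 23.3 RPKM in Ctrl libraries. Ctrl 5-FU replicate 1 lay just under Ctrl replicate 2, and the groups did not overlap. The change was -0.73 ± 0.16 (limma, adjusted p = 0.0104).

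Mcm3 (chr1:20802968-20820312), whose yeast protein contacts ORC and Cdc6 during loading, had 17.1, 12.9 and 12.5 RPKM in Ctrl 5-FU libraries, against 30, 20.4 and 26.6 RPKM in Ctrl libraries. It changed by -0.81 ± 0.14 (limma, adjusted p = 0.0035), with no overlap between the groups.

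Mcm4 (chr16:15623897-15637400), a target of the firing kinase CDC7, had 12.5, 7.29 and 9.65 RPKM in Ctrl 5-FU libraries, against 18.4, 13.6 and 16.3 RPKM in Ctrl libraries. It changed by -0.68 ± 0.16 (limma, adjusted p = 0.0142), and the highest Ctrl 5-FU library lay just under the lowest Ctrl library. This call was lost in 5 of 21 alternative analyses, with adjusted p up to 0.0601; those were the analysis without a low-value filter, the TPM scale, the fit on these groups alone, and the fits without Ctrl replicate 1 or without Ctrl replicate 3.

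Mcm6 (chr1:128331590-128359664), whose human protein holds a CDT1-binding domain, had 17.5, 12.8 and 13.1 RPKM in Ctrl 5-FU libraries, against 27.3, 19.2 and 22.8 RPKM in Ctrl libraries. Its change of -0.64 ± 0.14 (limma, adjusted p = 0.00874) was the smallest of the 6 ring subunits, and the groups did not overlap.

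Among the loading factors, Cdt1 (chr8:122568015-122573128), which brings the ring to the origin, had 8.79, 5.20 and 5.37 RPKM in Ctrl 5-FU libraries, against 18.0, 11.3 and 14.2 RPKM in Ctrl libraries. The change was -1.07 ± 0.20 (limma, adjusted p = 0.00491), and the groups did not overlap.

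Cdc6 (chr11:98907801-98923940), the ATPase that joins ORC to receive the ring, had 2.0, 1.34 and 1.63 RPKM in Ctrl 5-FU libraries, against 3.45, 2.48 and 2.56 RPKM in Ctrl libraries. It changed by -0.53 ± 0.14 (limma, adjusted p = 0.0244), again without overlap. This call was lost in 6 of 20 alternative analyses, with adjusted p up to 0.0987: the analysis without a low-value filter, the TPM scale, and the fits without Ctrl 5-FU replicate 2, Ctrl 5-FU replicate 3, Ctrl replicate 1 or Ctrl replicate 3. The predicted gene Gm9430 is 95.223% identical to Cdc6 over 1528 bases and may share its reads. It stood at 0.187 to 0.451 RPKM in Ctrl 5-FU and 0.509 to 0.730 RPKM in Ctrl libraries.

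Gmnn (chr13:24751845-24761923), the inhibitor of CDT1, had 2.81, 1.60 and 1.82 RPKM in Ctrl 5-FU libraries, against 4.56, 3.37 and 4.36 RPKM in Ctrl libraries. It was lower in the same comparison as the loader it inhibits, by -0.74 ± 0.16 (limma, adjusted p = 0.00948), with no overlap.

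Mcm10 (chr2:4989714-5012791), which activates the loaded helicase, had 0.774, 0.268 and 0.445 RPKM in Ctrl 5-FU libraries, against 1.51, 0.727 and 1.12 RPKM in Ctrl libraries. The groups overlapped. It reached 1 RPKM in 5 of 12 libraries, all without 5-FU, and so entered the test only through the groups in which it is high. Its change of -0.50 ± 0.15 passed (limma, adjusted p = 0.0397), and this call was lost in 10 of 20 alternative analyses, with adjusted p up to 0.134, including the fits without Ctrl replicate 1, Ctrl replicate 3, Ctrl 5-FU replicate 2, Ctrl 5-FU replicate 3 or any ABX 5-FU library. By the estimated depth, the Mcm10 values stand for as few as 110 reads and the Gmnn values for as few as 89, against up to 11408 for Mcm7.

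All 10 genes were highest in replicate 1 within the Ctrl 5-FU group, and all 10 were highest in replicate 1 and lowest in replicate 2 within the Ctrl group. Ctrl 5-FU replicate 1 also had the lowest estimated depth, 27.7 M reads, and the highest megakaryocyte sum given above, and their part in its levels was not tested. Without that library, all 10 genes, Mcm10 among them, were called lower, where 1170 of the 8494 genes tested were. Their median change was -0.91. Ctrl replicate 1 also had the highest erythroid sum of its group, 305 RPKM against 28.6 and 41.4 RPKM in the other two Ctrl libraries, and the highest megakaryocyte sum, 145 RPKM against 69.0 and 58.7 RPKM. Their part in its levels was not tested. Without Ctrl replicate 1, 7 of the 10 genes were called lower, where 642 of the 8511 genes tested were. The median change of the 10 was -0.65.

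ABX 5-FU against ABX addressed the same recovery in mice that had drunk antibiotics. The 10 genes again had lower means in the 5-FU group, by 1.97 to 3.41-fold, with the widest gap for Cdt1. Apart from Mcm10, 9 of 9 were called lower, where 16.5% of all genes tested were called lower and 30.2% in either direction. Groups did not overlap for 9 of these 9, against 26.8% of all genes in this direction. Their median change was -1.07, against -0.014 for all genes.

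Cdt1 had 4.91, 4.31 and 5.26 RPKM in ABX 5-FU libraries, against 17.0, 19.2 and 13.2 RPKM in ABX libraries, with every ABX 5-FU library far below every ABX library. The change was -1.57 ± 0.20 (limma, adjusted p = 0.000453). Mcm7 had 20.5, 19.8 and 21.4 RPKM in ABX 5-FU libraries, against 54.2, 56.6 and 46.8 RPKM in ABX libraries. Its change of -1.31 ± 0.11 (limma, adjusted p = 3.94e-05) had the smallest p of the 10 genes.

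The other ring subunits were lower to a similar degree. Mcm5 had 6.87, 6.99 and 7.18 RPKM in ABX 5-FU libraries, against 18.3, 18.8 and 16.0 RPKM in ABX libraries, a change of -1.22 ± 0.20 (limma, adjusted p = 0.00138). Mcm2 had 12.4, 10.3 and 11.4 RPKM in ABX 5-FU libraries, against 27.1, 27.1 and 22.8 RPKM in ABX libraries (-1.11 ± 0.16). Neither gene had overlapping groups, and the ABX 5-FU libraries lay close together.

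Mcm3 had 12.0, 12.4 and 12.3 RPKM in ABX 5-FU libraries, against 26.8, 28.8 and 24.7 RPKM in ABX libraries (-1.07 ± 0.14). Mcm4 had 9.76, 9.38 and 10.3 RPKM in ABX 5-FU libraries, against 22.2, 20.0 and 17.7 RPKM in ABX libraries (-0.95 ± 0.16). Mcm6 had 13.6, 13.2 and 13.1 RPKM in ABX 5-FU libraries, against 28.4, 26.9 and 23.3 RPKM in ABX libraries (-0.93 ± 0.14). All 3 had adjusted p of 0.00176 or below (limma), and none had overlapping groups.

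Gmnn had 2.0, 1.94 and 2.47 RPKM in ABX 5-FU libraries, against 4.87, 6.28 and 4.21 RPKM in ABX libraries, a change of -0.95 ± 0.16 (limma, adjusted p = 0.00166). Cdc6 had 0.984, 1.15 and 1.66 RPKM in ABX 5-FU libraries, against 3.78, 2.94 and 2.80 RPKM in ABX libraries, a change of -0.89 ± 0.14 (limma, adjusted p = 0.00139). The spread of Cdc6 in ABX 5-FU libraries, with a coefficient of variation of 27.8%, was the widest of the 10 genes in that group. Mcm10 had 0.483, 0.563 and 0.483 RPKM in ABX 5-FU libraries, against 1.56, 1.56 and 1.01 RPKM in ABX libraries, a change of -0.64 ± 0.15 (limma, adjusted p = 0.0101). Its groups did not overlap here. As described above, Mcm10 entered the test only through libraries without 5-FU, so nothing is read from this call or from the gap.

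**Figure D2:**
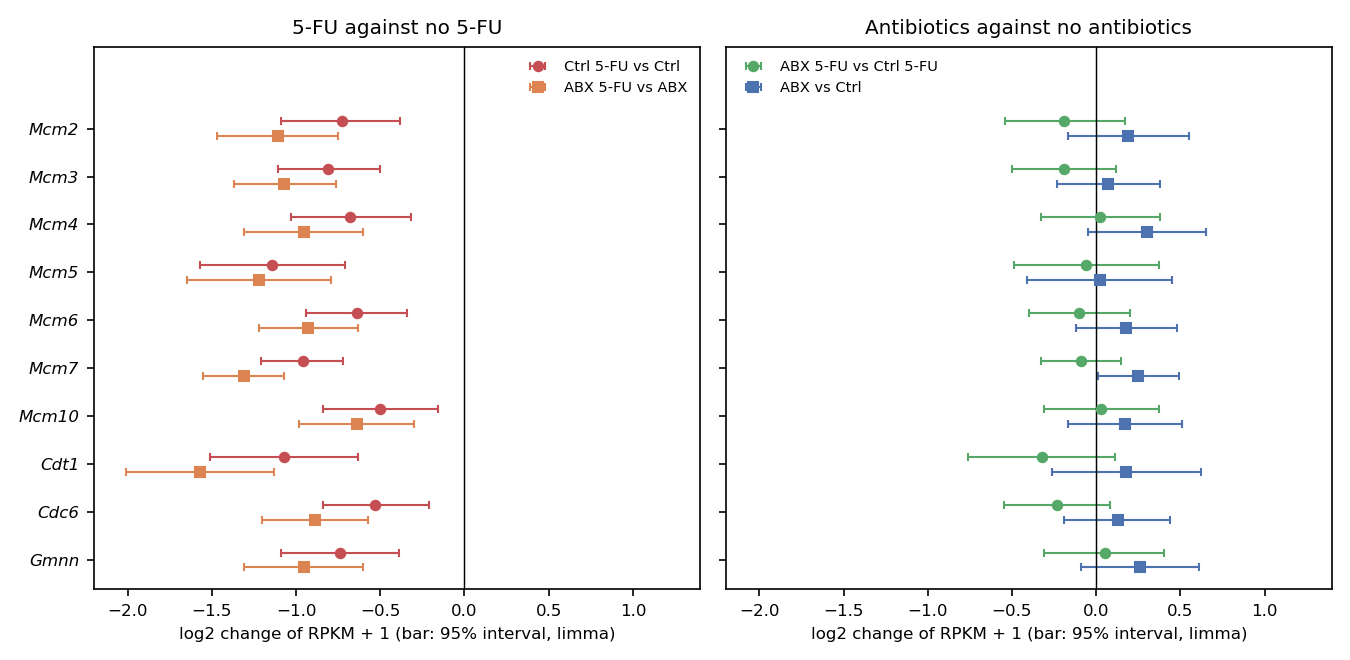
Log2 change of RPKM + 1 for each gene, with 95% intervals from limma; the left panel has 5-FU against no 5-FU (circles Ctrl 5-FU vs Ctrl, squares ABX 5-FU vs ABX) and the right panel antibiotics against no antibiotics (circles ABX 5-FU vs Ctrl 5-FU, squares ABX vs Ctrl). All intervals on the left lie below 0, reaching from -2.01 to -0.16. They include Mcm10, which entered the test only through libraries without 5-FU. On the right, the interval of Mcm7 in ABX vs Ctrl, whose lower end is 0.01, is the one that does not hold 0.

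The make-up of the ring was compared per library as the share of each subunit in the summed RPKM of Mcm2 to Mcm7. That sum was 100, 70.3 and 74.0 RPKM in Ctrl 5-FU libraries, against 170.0, 123 and 154 RPKM in Ctrl libraries. It was 75.1, 72 and 75.6 RPKM in ABX 5-FU libraries, against 177, 178 and 151 RPKM in ABX libraries. The 6 libraries with 5-FU all lay below the 6 without it. The subunits form the complex in equal numbers, while their RNA levels were unequal, with Mcm7 at 24.8% to 31.8% and Mcm5 at 7.86% to 12.4% of the sum over the 12 libraries. Mcm6 held 17.3% to 18.3% of the sum in libraries with 5-FU, against 14.8% to 16.1% in those without, with no overlap. Mcm5 held 7.86% to 11% in libraries with 5-FU and 10.3% to 12.4% in those without, and Mcm7 held 24.8% to 28.7% in libraries with 5-FU and 27.8% to 31.8% in those without. Both of these ranges overlapped. Mcm2, Mcm3 and Mcm4 also had overlapping shares. These shares are descriptions without a test, and the scaling of a library does not move them.

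**Figure D3:**
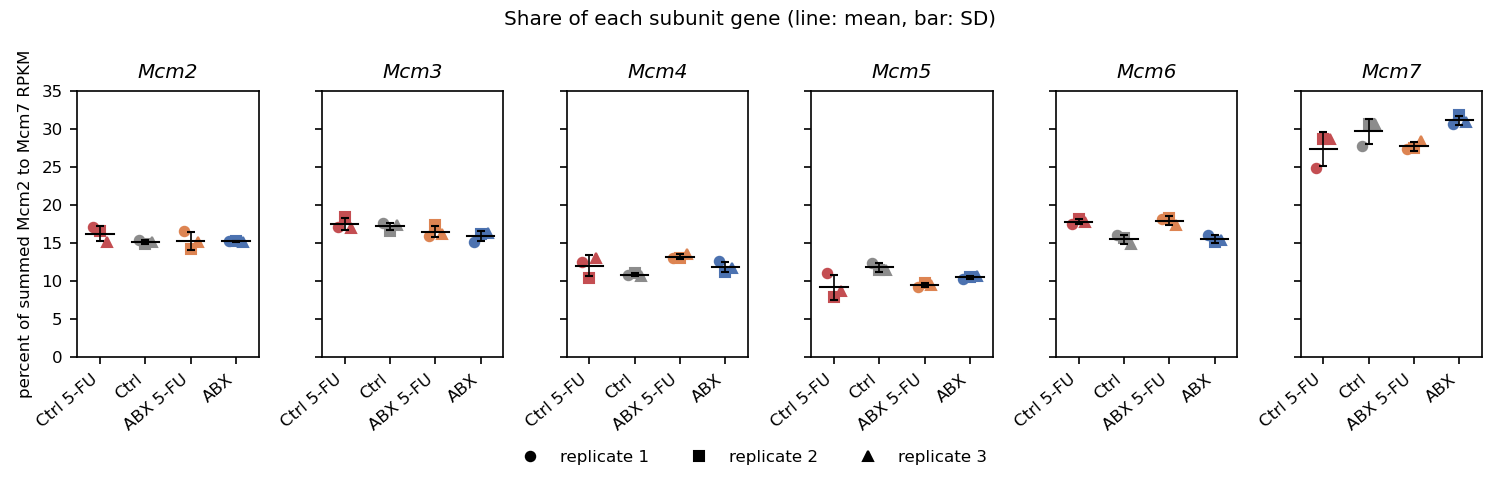
Share of each ring subunit gene in the summed RPKM of Mcm2 to Mcm7, in percent, for Ctrl 5-FU, Ctrl, ABX 5-FU and ABX libraries; points are libraries, the line is the mean and the bar the SD (n = 3). Mcm6 is the subunit whose libraries with 5-FU, at 17.3% to 18.3%, all lie above those without, at 14.8% to 16.1%.

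Loader and inhibitor were set side by side as the ratio of Cdt1 to Gmnn RPKM. It was 3.13, 3.25 and 2.94 in Ctrl 5-FU libraries, against 3.94, 3.36 and 3.26 in Ctrl libraries. In ABX 5-FU libraries it was 2.45, 2.22 and 2.13, against 3.5, 3.05 and 3.14 in ABX libraries. The 3 ABX 5-FU libraries lay below the other 9. Their mean was 2.27 ± 0.163, against 3.11 ± 0.157 in Ctrl 5-FU libraries (SD, n = 3 each). The ratio is a description, and no test of it was run. Gmnn values stand for as few as 89 estimated reads, which limits the precision of the ratio. Neither gene was called in ABX 5-FU against Ctrl 5-FU (limma, adjusted p = 0.48 for Cdt1 and 0.925 for Gmnn). Relative to the summed ring, Cdt1 averaged 7.81% ± 0.849 in Ctrl 5-FU and 9.66% ± 0.773 in Ctrl libraries, and 6.49% ± 0.489 in ABX 5-FU and 9.70% ± 1.01 in ABX libraries.

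**Figure D4:**
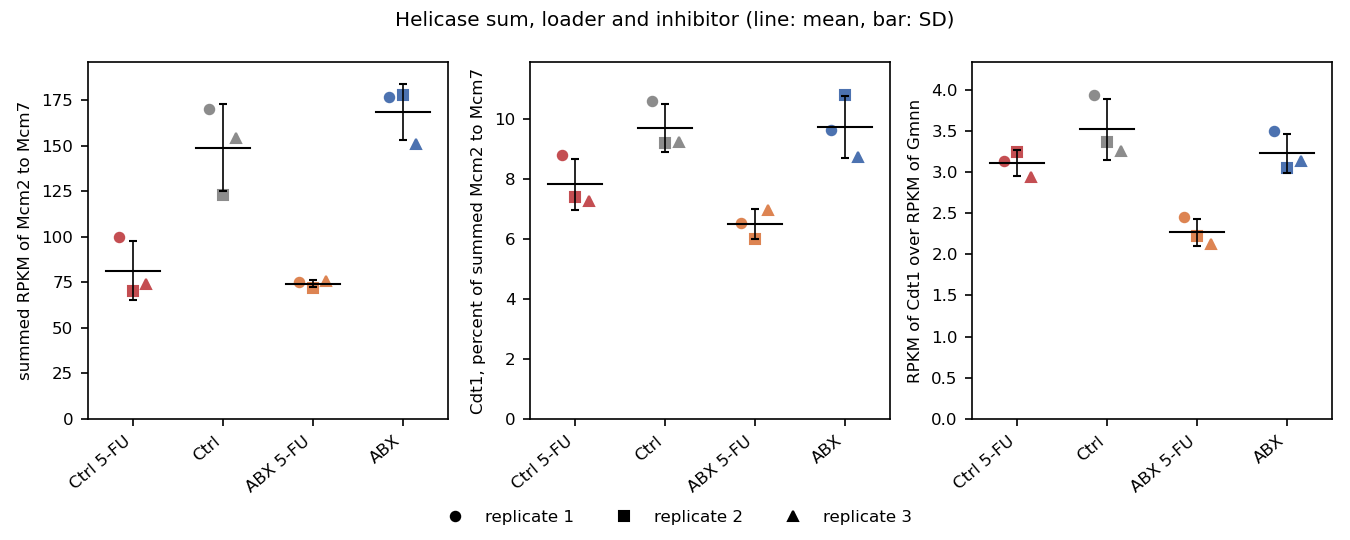
Summed RPKM of Mcm2 to Mcm7 (left), Cdt1 as a percent of that sum (middle) and the ratio of Cdt1 to Gmnn RPKM (right) in Ctrl 5-FU, Ctrl, ABX 5-FU and ABX libraries; points are libraries, the line is the mean and the bar the SD (n = 3). The ABX 5-FU ratios, 2.13 to 2.45, are the lowest of the 12 libraries.

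ABX against Ctrl addressed whether antibiotics alone shifted these genes at steady state, and it shares its groups with the 5-FU comparisons. No gene of the 10 was called, where 0.0702% of all genes tested were called, 6 genes in all. All 10 estimates lay above 0, between 0.02 and 0.30, with a median of 0.18 against 0.02 for all genes, and the groups overlapped for each gene, where 13% of all genes lay wholly higher in ABX libraries. Mcm7 averaged 52.5 ± 5.10 RPKM in ABX and 44.1 ± 5.55 RPKM in Ctrl libraries (SD, n = 3 each), an estimate of 0.25 ± 0.11 (limma, unadjusted p = 0.043, adjusted p = 0.27). It was the only gene of the 10 with an unadjusted p under 0.05, which 1519 genes, 17.8% of those tested, had. Mcm4 had the largest estimate, 0.30, with a 95% interval from -0.05 to 0.65, and averaged 20.0 ± 2.27 RPKM in ABX and 16.1 ± 2.42 RPKM in Ctrl libraries. The intervals of the 10 genes reached from -0.41 to 0.65, so changes of that size are not shown to be absent. Without Ctrl replicate 2 the median of the 10 estimates was 0.06, and without Ctrl replicate 1 it was 0.30. ABX libraries were shallower, at 29.0 to 37.4 M estimated reads against 43.9 to 54.6 M in Ctrl libraries, and the part of depth in these estimates was not tested.

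ABX 5-FU against Ctrl 5-FU asked the same of recovering HSCs. None of the 10 genes was called, where 0.117% of all genes tested, 10 genes, were called, and none had an unadjusted p under 0.05, which 1275 genes, 14.9% of those tested, had (limma). Estimates ran from -0.32 for Cdt1 to 0.05 for Gmnn, 7 below 0 and 3 above, and the smallest adjusted p was 0.479. Cdt1 averaged 4.83 ± 0.482 RPKM in ABX 5-FU and 6.45 ± 2.02 RPKM in Ctrl 5-FU libraries, with a 95% interval of the change from -0.76 to 0.11. Mcm3 was the gene whose libraries did not overlap, 12.0 to 12.4 RPKM in ABX 5-FU and 12.5 to 17.1 RPKM in Ctrl 5-FU, where 9.67% of all genes did not overlap in this direction. Without Ctrl 5-FU replicate 1 the median of the 10 estimates was 0.02, against -0.10 with it. The coefficient of variation of the 10 genes ran from 2.04% to 27.8% among ABX 5-FU libraries, with a median of 6.83%, and from 11% to 51.8% among Ctrl 5-FU libraries, with a median of 25.9%. It was smaller among ABX 5-FU libraries for 9 of the 10 genes, and Cdc6 was the exception, at 27.8% in ABX 5-FU and 20.2% in Ctrl 5-FU libraries. All 10 genes were highest in replicate 1 within the Ctrl 5-FU group, so their spreads are not separate observations. The spread of all genes was not compared, and the cause of the difference was not tested.

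The difference between the 5-FU effects with and without antibiotics was tested as an interaction. None of the 10 genes was called, where 0.0117% of all genes tested, 1 gene, was called. All 10 estimates were below 0, from -0.50 for Cdt1 to -0.08 for Mcm5, with a median of -0.28 against -0.016 for all genes, and the smallest adjusted p was 0.598 (limma). Mcm7 had an estimate of -0.34 ± 0.16 and was the gene of the 10 with an unadjusted p under 0.05, 0.0494, which 710 genes, 8.3% of those tested, had. The estimates are built from the 4 groups already compared above, so they are not a further observation. Without Ctrl 5-FU replicate 1 their median was -0.14, and the Mcm5 estimate was 0.18, on the other side of 0. Whether the 5-FU effect on licensing genes differed with antibiotics was therefore not shown either way, with 95% intervals of the 10 differences that reach from -1.12 to 0.53.

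Genes that act before, beside and after licensing were counted by lists. The shares of all tested genes called lower, 11.8% without antibiotics and 16.5% with them, are the background for each count. Alternative analyses were not run for single genes of these lists. Of the 9 genes of origin recognition and loading, 6 were tested and 1 was called lower in Ctrl 5-FU against Ctrl, with a list median of -0.07, a share near that background. That gene was Orc6, a subunit of the origin recognition complex, at 3.56 ± 0.717 RPKM in Ctrl 5-FU and 5.55 ± 0.874 RPKM in Ctrl libraries (-0.53 ± 0.14, limma, adjusted p = 0.02). Orc6 was also the 1 gene of the list called lower in ABX 5-FU against ABX (-0.73 ± 0.14, adjusted p = 0.00296), where the list median was -0.06. Orc2, Orc3 and Orc4, subunits of the same complex, had changes of -0.01, -0.12 and 0.13 in Ctrl 5-FU against Ctrl and were not called.

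Of the 17 genes of origin firing, 11 were tested. Without antibiotics 7 were called lower and none higher, with a median of -0.44, and with antibiotics 8 were called lower and none higher, with a median of -0.59. Most of these calls are of the kind described for Mcm10. Of the 7 genes lower without antibiotics, 4 did not reach 1 RPKM in 3 libraries with 5-FU, Ccne2, Cdc45, Gins3 and Recql4, and of the 8 with antibiotics 5 did not, the same 4 and Topbp1. These genes entered the test through libraries without 5-FU, so nothing is read from their calls or from the list counts. Gins2, Gins4 and Wdhd1 reached 1 RPKM in at least 3 libraries with 5-FU and were called lower in both comparisons. Wdhd1 lay near that limit, at 1.17, 0.643 and 0.771 RPKM in Ctrl 5-FU and 0.881, 1.05 and 1.12 RPKM in ABX 5-FU libraries. Gins4, a subunit of the GINS part of the active helicase, averaged 3.29 ± 0.254 RPKM in Ctrl 5-FU and 4.80 ± 0.325 RPKM in Ctrl libraries (-0.44 ± 0.082, limma, adjusted p = 0.00498), and Gins2, another GINS subunit, changed by -0.45 ± 0.12. In ABX 5-FU against ABX, Gins2, Gins4 and Wdhd1, which links the helicase to DNA polymerase alpha, changed by -0.67 ± 0.12, -0.44 ± 0.082 and -0.50 ± 0.11. As values without a test, Gins3 averaged 0.837 ± 0.0632 RPKM in Ctrl 5-FU and 1.77 ± 0.374 RPKM in Ctrl libraries, and Recql4, a helicase needed for activation, 0.371 ± 0.0722 RPKM in Ctrl 5-FU and 1.05 ± 0.422 RPKM in Ctrl libraries.

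Of the 18 genes of CDT1 and geminin turnover, 13 were tested. In Ctrl 5-FU against Ctrl, 4 were called lower and none higher, with a median of -0.05: Pcna, the sliding clamp on which CDT1 is marked for degradation, Dtl, the substrate receptor of the CRL4 ubiquitin ligase, and Cdc20 and Fbxo5, an activator and an inhibitor of the anaphase-promoting complex that degrades geminin. Pcna averaged 20.7 ± 3.17 RPKM in Ctrl 5-FU and 42.1 ± 8.96 RPKM in Ctrl libraries (-0.98 ± 0.15, limma, adjusted p = 0.00194). Dtl averaged 1.84 ± 0.528 RPKM in Ctrl 5-FU and 3.67 ± 0.842 RPKM in Ctrl libraries (-0.72 ± 0.14, adjusted p = 0.00598). In ABX 5-FU against ABX, 4 were called lower, Pcna, Dtl, Fbxo5 and Anapc11, the catalytic subunit of the anaphase-promoting complex, and 2 were called higher, with a median of -0.16. Over all genes tested, 13.7% were called higher, so 2 of 13 is near the background. The 2 higher genes, named after their values were seen, were Cul4a and Ddb1, the scaffold and adaptor of the CRL4 ligase. Cul4a averaged 3.08 ± 0.0887 RPKM in ABX 5-FU and 2.54 ± 0.118 RPKM in ABX libraries (0.20 ± 0.059, limma, adjusted p = 0.0234). Ddb1 averaged 25.6 ± 0.660 RPKM in ABX 5-FU and 21.5 ± 0.850 RPKM in ABX libraries (0.24 ± 0.080, adjusted p = 0.0446). Neither was called in Ctrl 5-FU against Ctrl, with changes of 0.13 and 0.12, and Cul4b, the other scaffold, was not called in ABX 5-FU against ABX (0.19 ± 0.081, adjusted p = 0.0974).

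Of the genes that take the helicase off DNA or travel with it at the fork, 7 were tested. Traip, a ubiquitin ligase for helicase unloading in mitosis, and the fork protection pair Timeless and Tipin were called lower in both comparisons, and no other gene of the list was called. Timeless averaged 1.16 ± 0.481 RPKM in Ctrl 5-FU and 2.52 ± 0.173 RPKM in Ctrl libraries (-0.73 ± 0.13, limma, adjusted p = 0.00377). Tipin averaged 2.15 ± 0.602 RPKM in Ctrl 5-FU and 3.92 ± 0.677 RPKM in Ctrl libraries (-0.65 ± 0.15, adjusted p = 0.0135). Traip stayed under 1 RPKM in all libraries with 5-FU and entered the test through those without it, so it is given as values: 0.795 ± 0.0355 RPKM in Ctrl 5-FU and 2.22 ± 0.458 RPKM in Ctrl libraries. Of 10 E2F and RB family genes tested, 0 were called in Ctrl 5-FU against Ctrl (limma; 1 had an unadjusted p under 0.05), with a median of -0.18, and 3 were called lower in ABX 5-FU against ABX, with a median of -0.27: Mybl2, Rbl1 and Foxm1. Of these 3, Foxm1 alone reached 1 RPKM in 3 libraries with 5-FU (-0.54 ± 0.18, limma, adjusted p = 0.0452), and the calls of Mybl2 and Rbl1 rest on entry through libraries without 5-FU. E2f1, an activator of licensing genes, averaged 0.970 ± 0.0764 RPKM in Ctrl 5-FU and 0.775 ± 0.229 RPKM in Ctrl libraries and was not called. The 1 tested gene of the other MCM domain list, Mcm3ap, and the 2 tested partners or relatives of geminin were not called. In ABX against Ctrl, in ABX 5-FU against Ctrl 5-FU and in the interaction, none of the 50 tested genes of these 7 lists was called (limma), and 9, 1 and 2 of them had an unadjusted p under 0.05.

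**Figure D5:**
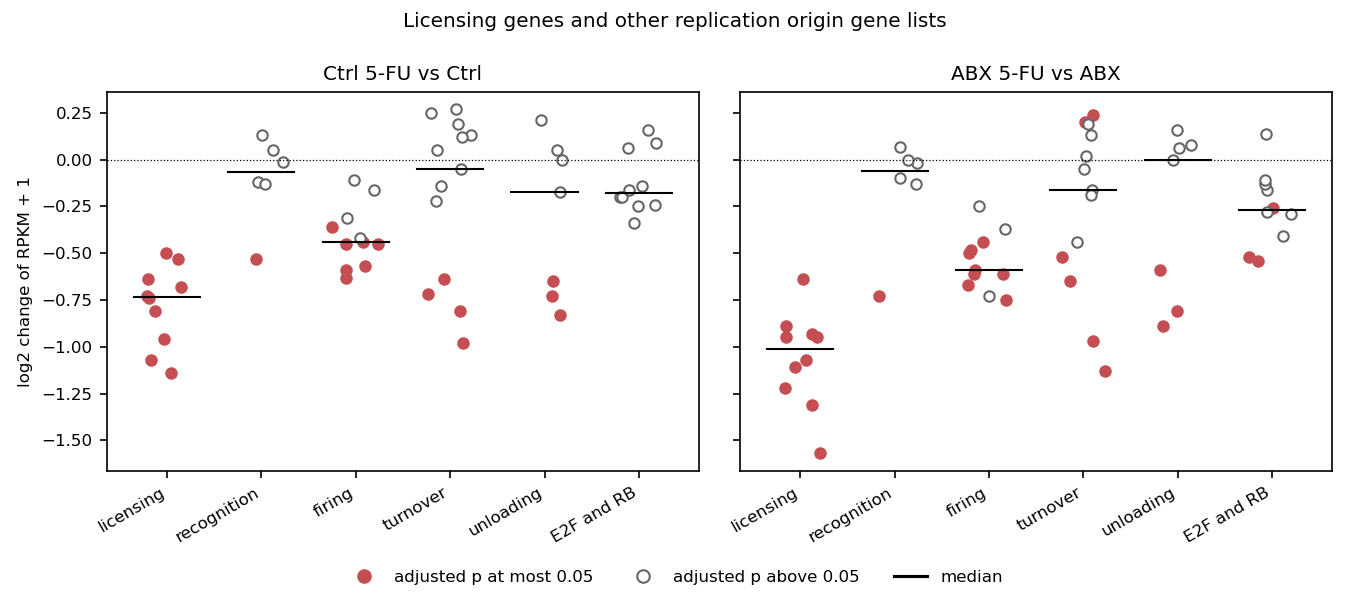
Log2 change of RPKM + 1 of each tested gene in the licensing set and in 5 neighbouring lists, for Ctrl 5-FU vs Ctrl (left) and ABX 5-FU vs ABX (right); filled points passed an adjusted p of 0.05 in limma, open points did not, and the bar is the list median. The licensing medians are -0.74 and -1.01 and the recognition medians -0.07 and -0.06; genes that entered the test only through libraries without 5-FU are included.

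Genes with the most similar pattern were ranked by Pearson's r across the 12 libraries, which is driven by the split between libraries with and without 5-FU, so the values are given within the 6 libraries of each kind as a description. For the mean of Mcm2 to Mcm7, the genes ranked highest included Fen1, Tcf19, Ran, Dtl, Pcna-ps2, Uhrf1 and Exo1. Fen1, the flap endonuclease of Okazaki fragment processing, had r = 0.99 within the 6 libraries with 5-FU and 0.89 within the 6 without. Tcf19 had r = 0.85 with 5-FU and 0.95 without, and averaged 1.84 RPKM in Ctrl 5-FU, 6.94 in Ctrl, 1.5 in ABX 5-FU and 9.15 in ABX libraries. Pcna-ps2 is a pseudogene that may take reads of Pcna. Cdt1 was most like Ran, Fen1 and Pold1, the catalytic subunit of DNA polymerase delta. Gmnn was most like Apitd1, Spc24 and Pbk, and Mcm10 most like Nuf2, Fignl1 and Rrm1. Spc24 and Nuf2 encode parts of the NDC80 kinetochore complex. Cdc6 was most like Nup133, Mthfd1 and Gart, with r of 0.72 to 0.85 within the libraries with 5-FU and 0.80 to 0.97 within those without.

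Beside the licensing genes, the summed proliferation markers Mki67, Top2a, Ccnb1, Cdk1, Pcna, Rrm2 and Tyms ran from 38.4 to 60.7 RPKM in Ctrl 5-FU libraries, against 74.1 to 105 RPKM in Ctrl libraries. They ran from 42.0 to 54.3 RPKM in ABX 5-FU libraries, against 79.7 to 115 RPKM in ABX libraries. The groups with 5-FU did not overlap those without. Of these 7 genes, 5 were called lower in Ctrl 5-FU against Ctrl and 6 in ABX 5-FU against ABX, where 11.8% and 16.5% of all genes tested were. Pcna made up much of the sum, at 18.2 to 24.2 RPKM in Ctrl 5-FU and 34.3 to 51.8 RPKM in Ctrl libraries. Ccnb1, a mitotic cyclin, was called in neither comparison and overlapped, at 7.58 to 11.3 RPKM in Ctrl 5-FU and 9.93 to 13.3 RPKM in Ctrl libraries. Pcna is counted in this sum and in the turnover list. The summed megakaryocyte markers ran from 109 to 406 RPKM in Ctrl 5-FU, 58.7 to 145 in Ctrl, 116 to 136 in ABX 5-FU and 84.4 to 88.6 in ABX libraries, and the part of other cell types in the licensing gene levels was not tested.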

How the data were processed

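The authors deposited RPKM values made from SMART-Seq v4 and Nextera XT libraries, each from 2000 sorted HSCs per the labels' protocols, on 1 flow cell per the titles. Alignment tools named in the submitters' processing notes are STAR 2.5.3a and Partek, with mm10 as the build. How reads were counted, on which strand and against which gene models was not given in the sources used here. All 12 columns were used. The lowest value, 0.0001, was read as 0. Total reads are not given, so depth was estimated from steps between low values, with GENCODE M21 exon lengths, and read numbers are estimates. Low depth limits the precision of genes near 1 RPKM.

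The test scale was log2(RPKM + 1), on 8553 genes that reached 1 RPKM in 3 or more libraries, using limma 3.58.1 in R 4.3.3: 4 group means over 12 libraries, 8 residual degrees of freedom, prior degrees of freedom 3.34, empirical Bayes with an intensity trend, two-sided, Benjamini-Hochberg adjustment within a comparison, called at 0.05. The procedure was tested on simulated data. The 10 genes and all lists were chosen with earlier results of these data known. Of each list, up to 4 called genes with the smallest p per comparison were named; likeness took the top 8 or top 3 genes without predicted ones, of which 1 is not reported here. Claspn and Idas matched no symbol. Ends are the table's stop less 1. Similar transcripts were sought with BLAST+ 2.17.0 at 95% identity over at least 100 bases. They were found for 4 of the 10 genes: Mcm7 and Cdc6, as given above, and Mcm5 and Mcm6. Mcm6 matched Gm15654 over 182 bases, and Gm15654 stood at 0.315 to 2.19 RPKM. Mcm5 matched several genes over 112 to 141 bases, among them Hnrnpr, at 3.48 to 4.18 RPKM. The part of shared reads in these levels was not tested. Alternatives were pseudocounts of 0.1 and 5, no filter or 5 RPKM, 3 rescalings, no trend, the compared groups alone, an i7 index block and leaving out each library.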

Additional observations from a re-analysis of the deposited data

How the results depend on the processing

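The 5-FU effects on the 10 genes kept their direction in every alternative run. The 207 values of each 5-FU comparison re-run the same 10 genes, Mcm10 among them, on the same libraries, so they are not separate observations. In ABX 5-FU against ABX all 207 were called. In Ctrl 5-FU against Ctrl 186 of 207 were, and the other 21 belonged to Mcm4, Mcm10 and Cdc6. There, 7 of 10 genes were called lower with no filter, where 694 of 26832 genes were (1369 in either direction). For TPM, 7 of 10 were called lower, where 485 of 14377 genes were (2613 in either direction). With the compared groups alone 8 were, where 432 of 8553 genes were. With a library left out 7 to 10 were, with the numbers for all genes given below. At 5 RPKM, 7 genes entered and 7 were called lower, where 814 of 3709 genes were. On the TPM scale values are larger against the same filter and pseudocount, so 14377 genes entered, against 8553; gene set and scale changed together. There the median change of all genes was 0.168 without and 0.141 with antibiotics, and the licensing medians relative to it were -0.89 and -1.17; the share of calls that were higher was 81.4% against 45.1% unscaled without antibiotics, and 76.2% against 45.4% with them (63.3% and 62.2% for a common protein-coding sum, with 8586 genes). The number of all genes called in Ctrl 5-FU against Ctrl was 1846, 1184 at 5 RPKM, where fewer genes were tested, 812 with the compared groups alone, and 941 to 2080 with a library left out. In ABX 5-FU against ABX it was 2586, 1460 at 5 RPKM, and 1620 to 2879 with a library left out. In ABX against Ctrl it was 6, 11 with no filter, 15 at 5 RPKM, 16 for TPM, 12 for the protein-coding sum, 20 with an i7 index block, and 1 to 25 with a library left out. In ABX 5-FU against Ctrl 5-FU it was 10, 22 at 5 RPKM, 23 for TPM, 34 for the protein-coding sum, 3 with the compared groups alone, 22 with the index block, and 6 to 28 with a library left out. In the interaction it was 1, 7 with no filter, 0 at 5 RPKM, 2 for TPM, 0 with the index block, and 0 to 3 with a library left out. No licensing gene was called in these 3 comparisons under any alternative run. Estimates crossed 0 for Mcm5 in ABX against Ctrl (-0.01 for TPM, -0.0033 with size factors) and Mcm4 in ABX 5-FU against Ctrl 5-FU (-0.0095 for TPM). With a library left out, ABX against Ctrl ran from -0.08 to 0.19 for Mcm3 and -0.13 to 0.15 for Mcm5. ABX 5-FU against Ctrl 5-FU ran from -0.15 to 0.20 for Mcm4, -0.23 to 0.20 for Mcm5, -0.17 to 0.037 for Mcm6, -0.08 to 0.16 for Mcm10 and -0.07 to 0.21 for Gmnn. The Mcm5 interaction ran from -0.25 to 0.18. The cause was not tested. The labels number no replicates (numbers here follow accession order), so no replicate block was fitted; the i7 index block sets each ABX beside a Ctrl library, and each ABX 5-FU beside a Ctrl 5-FU library, by shared index.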
